A study of Sus scrofa with 2 samples.

Results

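Among the nuclei of pig pancreas profiled by single-nucleus RNA sequencing, a small number of barcodes carried marker RNA of acinar cells and of duct cells at the same time. Such double-marked barcodes were defined by 270 to 3700 detected genes, fewer than 13000 unique molecular identifiers (UMIs, each counting 1 RNA molecule), at least 5 UMIs and 1% of UMIs from the ductal genes SLC4A4, PKHD1 and SCTR, and at least 3 UMIs and 0.6% of UMIs from the acinar genes CHN2, EFEMP1, AGMAT, EXTL1, ADAD1, CDH4 and RBPJL. They were 403 of 28583 barcodes in all, of which 200 were WT and 203 PIGinH11. Each group was 1 library from 1 pig, so these data hold no measure of how animals vary, no test between the groups was possible, and all intervals below are 95% intervals that cover counting error only.

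The WT library came from a wild-type Bama pig. The PIGinH11 library came from a Bama pig with GIPRdn, hIAPP and PNPLA3 I148M knocked in at the H11 locus, under promoters specific to beta cells or liver, so the transgenes were not directed to acinar or duct cells. Both pigs were male and 18 months old, and both had received control diet until the age of 6 months and a high-fat and high-sugar diet for the following 12 months, so no group without the diet was present. A single piece from the body of each pancreas was used. WT was the deeper library, with 55784067 UMIs over 13619 barcodes (median 3216 each), while PIGinH11 had 26228811 UMIs over 14964 barcodes (median 1181.5 each).

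Acinar cells make and store the digestive enzymes and secrete them into the lumen of the acinus. Duct cells line the tubes that drain the acini, carry a primary cilium and add bicarbonate and water to the juice. Both arise from a common progenitor epithelium in the embryo, and in injured pancreas acinar cells can take on ductal features, a change known as acinar-to-ductal metaplasia. In droplet-based sequencing, barcodes with markers of 2 cell types also arise when 2 nuclei enter the same droplet, which is called a doublet, and free RNA in the suspension adds transcripts of abundant cells to every droplet. The deposited matrices preceded the doublet removal that the authors applied.

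The 4 markers that name both identities have clear roles. SLC4A4 (ENSSSCG00000008943, Sscrofa11.1 chromosome 8, positions 67768955 to 68177213) is the sodium-bicarbonate cotransporter of the basolateral duct membrane. PKHD1 (ENSSSCG00000001746, chromosome 7, 45447354 to 45925141) encodes fibrocystin, a protein of the primary cilium. RBPJL (ENSSSCG00000037156, chromosome 17, 47631432 to 47642169) is a subunit of the transcription factor complex that drives enzyme genes in acinar cells. CHN2 (ENSSSCG00000016687, chromosome 18, 43209186 to 43509592) encodes a chimaerin that acts on Rac and was listed in the matrices by its identifier alone.

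Within the limits on genes and UMIs, double-marked barcodes were 200 of 13189 (1.52%, Clopper–Pearson interval 1.31 to 1.74) in WT and 203 of 14908 (1.36%, 1.18 to 1.56) in PIGinH11. These intervals overlapped, but the order of the libraries depended on the settings. After thinning to 500 UMIs the share was lower in WT (1.96%, 1.73 to 2.22) than in PIGinH11 (2.58%, 2.33 to 2.84). Thinning to 1000 UMIs did not keep this order, with 1.604% (1.39 to 1.84) in WT and 1.373% (1.14 to 1.64) in PIGinH11. Those intervals overlapped, and 1155 WT and 6093 PIGinH11 barcodes below 1000 UMIs were left out. Without EFEMP1 in the acinar sum the share was higher in WT (0.880%, 0.727 to 1.05) than in PIGinH11 (0.523%, 0.414 to 0.653). They were 8.00% (6.97 to 9.14) of the barcodes that met the ductal criterion in WT and 8.25% (7.19 to 9.40) in PIGinH11, and 2.10% (1.82 to 2.41) and 1.86% (1.62 to 2.14) of those that met the acinar criterion. Barcodes that met the acinar criterion alone are called acinar-only, and were 9315 in WT and 10685 in PIGinH11. Barcodes that met the ductal criterion alone are called ductal-only, and were 2299 in WT and 2259 in PIGinH11. The remaining 1375 and 1761 barcodes met neither. Above the gene or UMI limit, 65 of 429 WT barcodes (15.2%, 11.9 to 18.9) and 2 of 53 PIGinH11 barcodes (3.77%, 0.460 to 13.0) met both criteria.

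**Figure D1:**
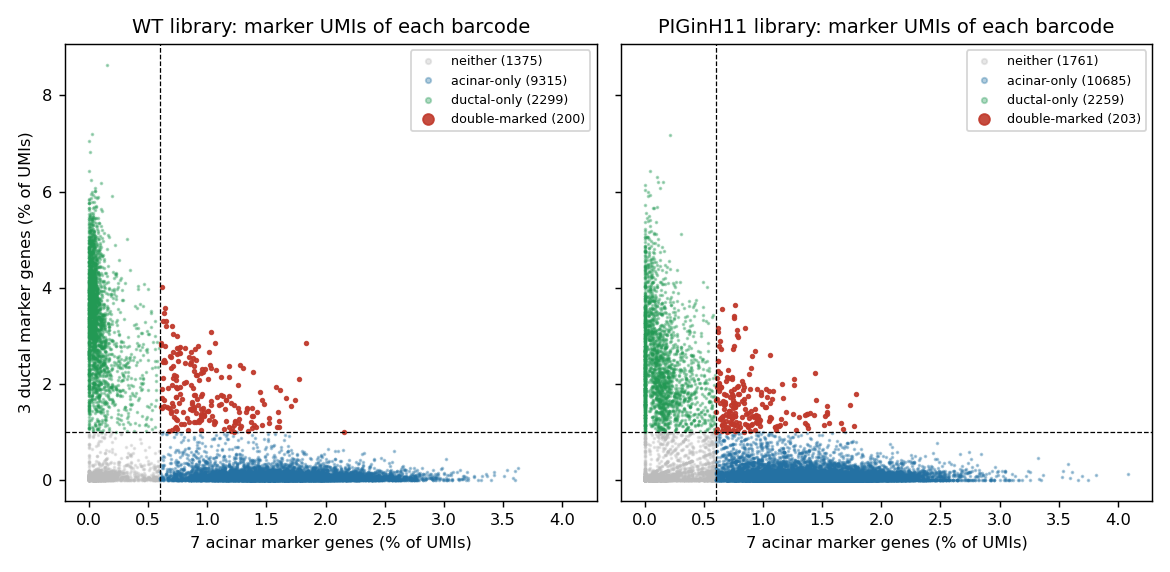
Each point is 1 barcode within the limits, placed by the percent of its UMIs from the 7 acinar marker genes (x axis) and the 3 ductal marker genes (y axis), with the thresholds of 0.6% and 1% as dashed lines. The 200 WT and 203 PIGinH11 double-marked barcodes (red) lie below the range of many ductal-only barcodes (green) on the y axis and of many acinar-only barcodes (blue) on the x axis.

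The marker shares that chose the double-marked barcodes are given as a description. The ductal genes made up a median of 1.66% of UMIs in WT double-marked barcodes, against 3.30% in ductal-only and 0.0489% in acinar-only barcodes. The acinar genes made up 0.917% in WT double-marked barcodes, against 1.62% in acinar-only and 0.0476% in ductal-only barcodes. In PIGinH11 the ductal genes made up 1.43%, against 2.26% in ductal-only barcodes, and the acinar genes 0.792%, against 1.39% in acinar-only barcodes. Double-marked barcodes therefore held both signals at intermediate levels in both libraries. SLC4A4 provided most of the ductal signal, with 14504 of 19191 ductal marker UMIs in WT and 4035 of 5423 in PIGinH11. The acinar signal was spread over more genes, and EFEMP1, which encodes an extracellular matrix protein, provided 3197 of 10086 acinar marker UMIs in WT and 946 of 2749 in PIGinH11.

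More marker UMIs stood behind each WT nucleus. A WT double-marked nucleus held a median of 85.5 ductal and 45.5 acinar marker UMIs, and a PIGinH11 one 16 and 9. All 3 ductal genes were detected in 182 of 200 WT nuclei (91%) and 118 of 203 PIGinH11 nuclei (58.1%). At least 3 of the 7 acinar genes were detected in 198 WT (99%) and 193 PIGinH11 (95.1%) nuclei. In PIGinH11, however, 44 nuclei (21.7%) rested on 3 to 5 acinar UMIs, compared with 5 (2.5%) in WT.

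Membership also depended on where the thresholds lay. With the acinar criterion met, 29 WT and 52 PIGinH11 members had a ductal share between 1% and 1.2%, while 40 and 82 barcodes just outside had 0.8% to 1%. With the ductal criterion met, 38 and 59 members had an acinar share between 0.6% and 0.72%, while 39 and 93 barcodes just outside had 0.48% to 0.6%. The barcodes just outside were at least as many as those just inside at each threshold, so no gap separated the double-marked class from its neighbours.

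Background levels were read from barcodes with endothelial markers, a cell type that should lack both programmes, with those of other types beside them. In WT endothelial-marked barcodes (160 barcodes, median 3702 UMIs) the acinar genes had a median share of 0.0553% and the ductal genes 0.0424%. In PIGinH11 (252 barcodes, median 1908.5 UMIs) these were 0.0782% and 0.0244%. Endothelial-marked barcodes had the lowest acinar median of the 4 types in each library. In mesenchymal-marked barcodes the acinar and ductal medians were 0.0989% and 0.0627% in WT, and 0.114% and 0.0509% in PIGinH11. In immune-marked barcodes they were 0.0958% and 0.0672% in WT, and 0.128% and 0.0163% in PIGinH11. Endocrine-marked barcodes had the highest acinar median, at 0.125% in WT and 0.216% in PIGinH11, and ductal medians of 0.0472% and 0.0389%. Endocrine cells cannot be taken to lack acinar RNA, so their values are no measure of background. The share of barcodes marked for any of these 4 types, endocrine included, that crossed the acinar threshold followed depth differently in each library. Among PIGinH11 barcodes under 1000 UMIs that carried endothelial, mesenchymal, endocrine or immune markers, 20.3% of 256 also met the acinar criterion and 0.781% the ductal one, compared with 7.03% and 1.17% of 256 barcodes between 2000 and 4000 UMIs. In WT the acinar criterion was met by 7.5% of 40 such barcodes under 1000 UMIs, 4.69% of 128 from 1000 to 2000 and 15.9% of 44 from 8000 to 13000. These shares pool endocrine-marked barcodes with the rest, so they are no measure of background either. Over all depths, 20.2% of 426 endocrine-marked barcodes in PIGinH11 and 12.3% of 310 in WT met the acinar criterion. For endothelial-marked barcodes it was 5.16% of 252 and 0.625% of 160. For mesenchymal-marked ones it was 6.52% of 276 and 7.63% of 236, and for immune-marked ones 9.68% of 62 and 2.22% of 45. The part of free RNA in the double-marked class was not tested.

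Markers of further cell types were rare in double-marked nuclei. The endocrine criterion was met by 3 of 200 in WT (1.5%, 0.310 to 4.32), against 0.376% of acinar-only and 0.261% of ductal-only barcodes. The endothelial, mesenchymal and immune criteria were met by none, which allows a share of up to 1.83%. In PIGinH11 none of the 203 met any of the 4 criteria, with an upper limit of 1.80%. The endocrine criterion was met there by 0.805% of acinar-only and 0.0885% of ductal-only barcodes. The summed level of the 8 endothelial markers was 64.0 CPM (UMIs scaled to a fixed total per class, so that classes of different size can be compared) in WT double-marked nuclei, against 45.6 in acinar-only and 54.9 in ductal-only nuclei, and their most abundant gene was FLT1. The 8 mesenchymal markers summed to 56.2 CPM against 88.4 and 67.0, with EBF1 highest, and the 8 immune markers to 37.4 CPM against 34.8 and 42.5, with CD247 highest. The 8 endocrine markers summed to 197 CPM against 160 and 191, with RIMS2 highest and SCG2 at 0 UMIs in both libraries. In PIGinH11 the sums were 129 CPM in double-marked, 123 in acinar-only and 140 in ductal-only nuclei for the endothelial markers, 138, 151 and 190 CPM for the mesenchymal, 345, 291 and 275 CPM for the endocrine and 81.5, 80.5 and 84.0 CPM for the immune markers. The endocrine sum was thus the one that was highest in double-marked nuclei in both libraries, on 200 and 110 UMIs, and its part in the other results was not tested.

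The count of barcodes with markers of 2 types was compared with the product of both frequencies. For acinar and ductal markers, the observed count was 0.111 of this product in WT (Poisson interval 0.0961 to 0.127) and 0.113 in PIGinH11 (0.0979 to 0.130). For acinar and mesenchymal markers it was 0.106 (0.0627 to 0.167) and 0.0893 (0.0529 to 0.141). For acinar and endocrine markers it was 0.170 (0.120 to 0.233) and 0.276 (0.221 to 0.341). The interval for acinar and ductal markers thus overlapped that for acinar and mesenchymal markers in both libraries, and lay below that for acinar and endocrine markers in PIGinH11. Pairs of ductal with other markers rested on few barcodes. Ductal and mesenchymal markers had ratios of 0.0671 (0.0138 to 0.196) and 0.0439 (0.00531 to 0.159), ductal and endocrine markers 0.153 (0.0701 to 0.291) and 0.0284 (0.00344 to 0.103), and ductal and endothelial markers 0 (up to 0.122) and 0.0721 (0.0149 to 0.211). Acinar and endothelial markers were together less often in WT, at 0.00866 (0.000219 to 0.0483), while in PIGinH11 their interval overlapped that of acinar and ductal markers, at 0.0706 (0.0376 to 0.121). The criteria for the types differ in the genes they sum, so these ratios also depend on the lists.

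For comparison with barcodes that hold the RNA of 2 nuclei by construction, each ductal-only barcode was added to an acinar-only barcode of its library, with both taken in barcode order. Of these added pairs, 695 of 2299 in WT (30.2%) and 582 of 2259 in PIGinH11 (25.8%) met the same rule, and they are the pairs used below. Since these pairs passed the same thresholds, their marker shares are a description. In WT the ductal genes were 1.65% of UMIs in added pairs and 1.66% in double-marked nuclei, and the acinar genes 0.876% and 0.917%. In PIGinH11 the ductal genes were 1.39% and 1.43%, and the acinar genes 0.817% and 0.792%. Over all added pairs, whether or not they met the rule, the ductal genes were 1.67% in WT and 1.07% in PIGinH11, and the acinar genes 0.786% and 0.767%.

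The depth of the double-marked nuclei took opposite directions in the libraries. In WT their median was 4813.5 UMIs (interval of the median 4101 to 5857, lowest 501, highest 10604), compared with 3020 in acinar-only and 3420 in ductal-only nuclei, a ratio to acinar-only of 1.59 (1.36 to 1.94). In PIGinH11 the median was 948 UMIs (846 to 1179, lowest 501, highest 9980), compared with 1203 in acinar-only and 1084 in ductal-only nuclei, a ratio of 0.788 (0.703 to 0.980). Double-marked nuclei were thus deeper than single-marked nuclei in WT and shallower than acinar-only nuclei in PIGinH11. The WT direction turned in the 15 nuclei without a high doublet score, at a ratio of 0.610 (0.234 to 2.50), and in the 5 nuclei at doubled marker shares, at 0.690 (0.199 to 2.02), and the PIGinH11 direction in the 2 nuclei at doubled shares, at 2.92. In neither library did they reach the depth of the added pairs, which had a median of 6264 UMIs in WT and 2485 in PIGinH11. The ratio of double-marked nuclei to added pairs was 0.768 in WT and 0.381 in PIGinH11.

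The libraries differed in their shallow barcodes. Of the double-marked nuclei, 20 of 200 in WT (10%) and 106 of 203 in PIGinH11 (52.2%) held fewer than 1000 UMIs. In PIGinH11, 39.1% of acinar-only and 45.7% of ductal-only barcodes did. No added pair was under 1000 UMIs, since no single-marked barcode held fewer than 500. Among barcodes of at least 1000 UMIs, the 97 PIGinH11 double-marked nuclei had a median of 1931 UMIs and a ratio to acinar-only of 1.08 (1.00 to 1.34), and the 180 WT nuclei a median of 5610 and a ratio of 1.68.

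**Figure D2:**
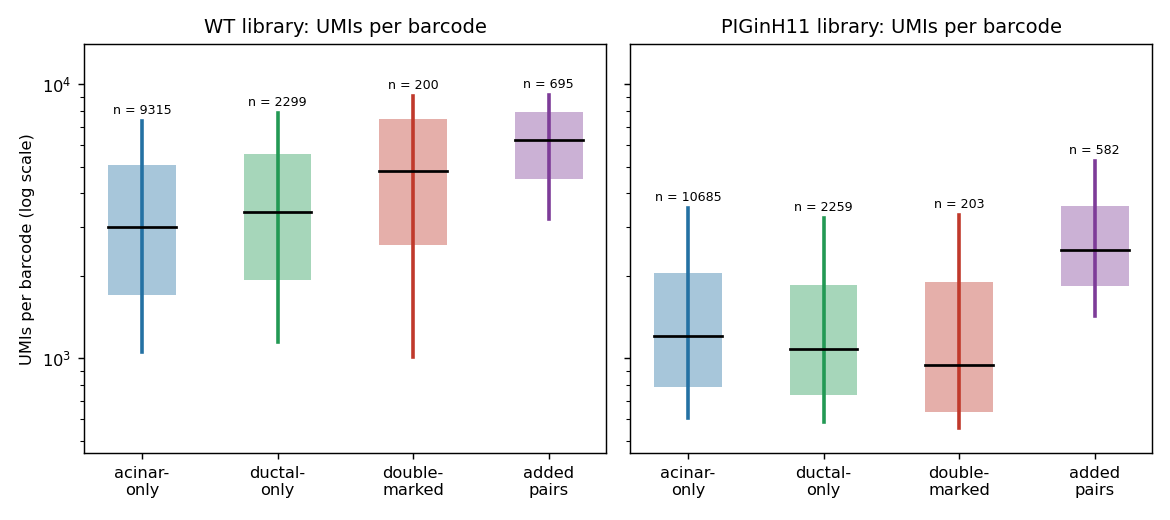
UMIs per barcode on a log scale for acinar-only, ductal-only and double-marked barcodes and for added pairs that met the rule, with the median (black line), the 25th to 75th percentile (box) and the 10th to 90th percentile (vertical line). The double-marked median is above both single-marked medians in WT (4813.5 UMIs) and below both in PIGinH11 (948 UMIs), and below the added pairs in each. In PIGinH11 its interval (846 to 1179) includes the ductal-only median of 1084 UMIs.

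The share of ductal-marked barcodes that also carried acinar markers followed depth differently in each library. In WT it was 20 of 180 barcodes below 1000 UMIs, 3.46% from 1000 to 2000, 6.01% from 2000 to 4000, 8.86% from 4000 to 8000 and 17.3% (12.8 to 22.5) from 8000 to 13000. Beyond the shallowest barcodes it was thus higher in each deeper bin in WT. In PIGinH11 it was 9.31%, 6.82%, 7.98%, 7.75% and 11.8% (1.46 to 36.4, 2 of 17) over the same bins, and the intervals of all 5 bins overlapped.

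When every barcode was thinned to 500 UMIs, so that depth was equal, double-marked nuclei had a median of 412.5 genes in WT (409 to 415) and 417 in PIGinH11 (416 to 419). Acinar-only nuclei had 396 and 401 genes, and ductal-only nuclei 396 and 410. The added pairs had 409 genes in WT (408 to 410) and 418 in PIGinH11 (417 to 419). The variety of RNA at equal depth was therefore higher in double-marked nuclei than in either single-marked class, and its interval overlapped that of the added pairs. Without thinning, the medians were 2385 genes in WT and 728 in PIGinH11 double-marked nuclei.

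The ductal part of each barcode was estimated as the proportion of the ductal-only profile that, mixed with the acinar-only profile of the same library, gave its UMIs the highest likelihood, over all genes except the 10 of the rule. Double-marked nuclei had a median ductal part of 0.475 (0.438 to 0.513) in WT and 0.534 (0.4996 to 0.571) in PIGinH11. Acinar-only nuclei had 0.00827 and 0.00998, and ductal-only nuclei 0.989 and 0.975. The genes outside the rule placed the double-marked nuclei near the middle between both classes. Since the rule asked for marker RNA of both classes, a part away from the ends partly describes the selection. The added pairs, which passed the same thresholds, had 0.475 (0.461 to 0.491) and 0.508 (0.493 to 0.521), and these intervals overlapped those of the nuclei. A ductal part between 0.3 and 0.7 was found in 79.5% of WT and 68.0% of PIGinH11 double-marked nuclei, compared with 85.0% and 84.7% of the added pairs.

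**Figure D3:**
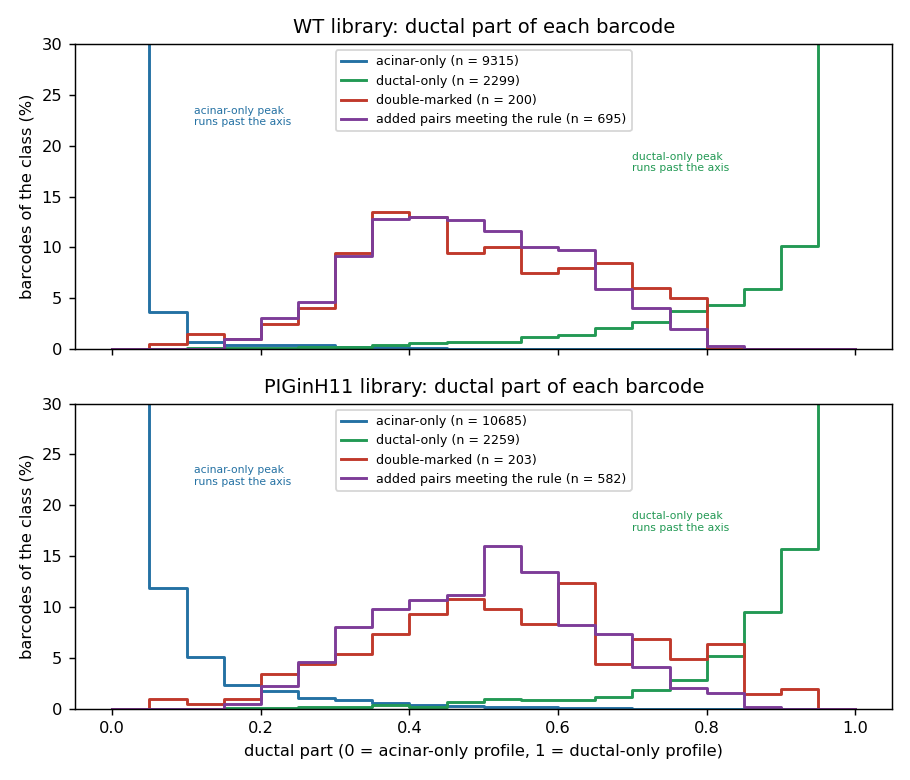
Percent of barcodes of each class (y axis, limited to 30%) in 20 bins of the ductal part (x axis, from 0 for the acinar-only profile to 1 for the ductal-only profile). Double-marked nuclei (red) and added pairs (purple) spread around their medians of 0.475 and 0.475 in WT and 0.534 and 0.508 in PIGinH11, while the single-marked classes gather at the ends.

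Most exocrine barcodes lay at the ends. In WT, 9074 acinar-marked or ductal-marked barcodes had a ductal part below 0.1 and 1731 at or above 0.9, and each step of 0.1 from 0.1 to 0.7 held 82 to 115, followed by 170 from 0.7 to 0.8 and 237 from 0.8 to 0.9. In PIGinH11 the ends held 9320 and 1705, while 797 (6.06%) lay from 0.1 to 0.2, 314 from 0.2 to 0.3, 95 to 195 in each step from 0.3 to 0.8 and 348 from 0.8 to 0.9. Double-marked nuclei with an acinar lean (ductal part under 0.4) numbered 65 in WT and 47 in PIGinH11, those from 0.4 to 0.6 numbered 80 and 78, and those with a ductal lean (over 0.6) numbered 55 and 78. In WT the median depth was 3887 UMIs in the acinar-leaning, 4696.5 in the middle and 6124 in the ductal-leaning nuclei. In PIGinH11 it was 720, 1212.5 and 1006.5 UMIs.

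A doublet score was computed for every barcode with Scrublet, which compares barcodes with sums of random barcode pairs, so it draws on the same kind of evidence as the added pairs. Among the double-marked nuclei, 185 of 200 in WT (92.5%, 87.9 to 95.7) and 163 of 203 in PIGinH11 (80.3%, 74.2 to 85.5) were among the highest scores, compared with 10.1% and 11.95% of all barcodes within the limits. In PIGinH11, 67.0% of double-marked nuclei under 1000 UMIs had a high score. The 15 WT and 40 PIGinH11 nuclei without a high score were shallow, with medians of 1769 and 649 UMIs, and leaned to the ductal side, with median ductal parts of 0.652 and 0.747. Whether a barcode held 1 nucleus or 2 was not tested by any of these measures.

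The profile of the double-marked nuclei was then compared, gene by gene, with the mixed profile, which is the sum of the ductal-only and acinar-only profiles in the proportion fitted to the summed UMIs of the library (0.506 ductal in WT, 0.542 in PIGinH11). Of 3640 genes outside the rule with at least 20 UMIs found or predicted in both libraries, 0 were 2-fold higher (0.0%) and 0 were 2-fold lower (0.0%) than the mixed profile in both libraries. In WT alone 0 were higher and 2 lower (0.0549%), and in PIGinH11, with fewer UMIs, 6 were higher (0.165%) and 11 lower (0.302%). At 1.5-fold, 1 gene was higher in both and none lower, though as a mean over nuclei 1 was higher and 4 lower, and without upper limits none was higher and 3 lower. Against the added pairs, likewise, no gene was 2-fold higher or lower in both libraries, with 2 higher (0.0549%) and 1 lower (0.0275%) in WT and 8 higher (0.22%) and 12 lower (0.33%) in PIGinH11. The fold is on the scale of CPM plus 5, with no replicate and no test. The median absolute log2 difference from the mixed profile was 0.11 in WT and 0.18 in PIGinH11. Across genes, which are not independent replicates, Pearson's r of log2 CPM was 0.987 and 0.963 with the mixed profile and 0.986 and 0.959 with the added pairs, but 0.804 and 0.768 with acinar-only and 0.824 and 0.848 with ductal-only nuclei. The proportion was fitted to these same UMIs, which favours the mixed profile.

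**Figure D4:**
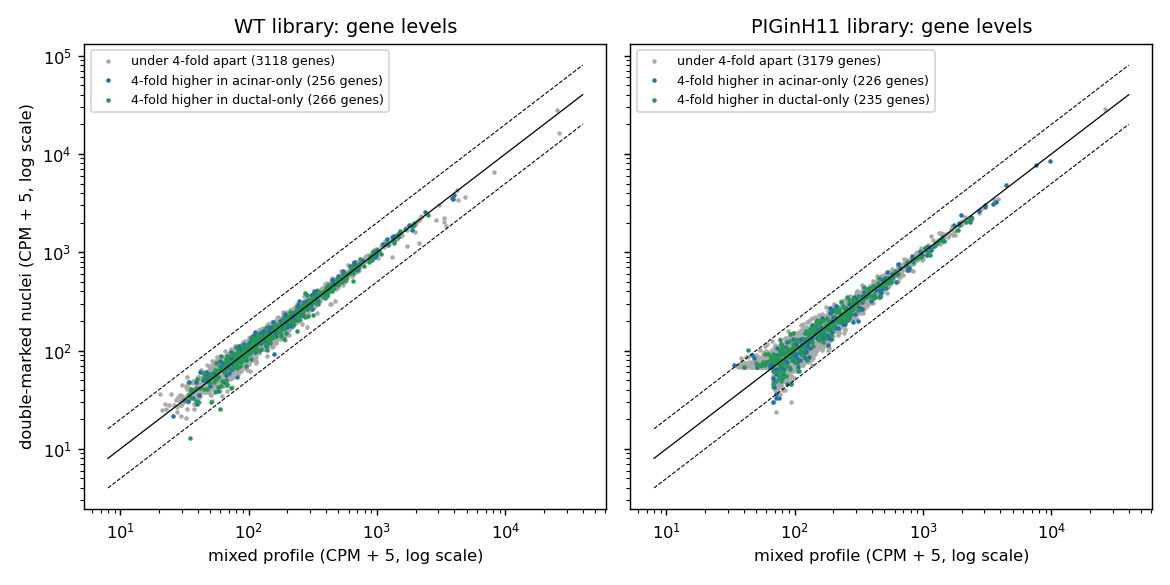
Level of each of 3640 genes in double-marked nuclei (y axis) against the mixed profile (x axis), both as CPM plus 5 on log scales, with the line of equality and dashed lines at 2-fold. Genes 4-fold higher in acinar-only (blue) or ductal-only (green) nuclei follow the same line as the others, with 2 genes beyond a dashed line in WT and 17 in PIGinH11.

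Genes that separate acinar from duct nuclei took intermediate levels. Of 522 genes that differed 4-fold between acinar-only and ductal-only nuclei in WT, 522 lay between both levels in double-marked nuclei (100%), and in PIGinH11 455 of 461 did (98.7%). Compared with acinar-only nuclei, 292 of 3640 genes were 2-fold higher in both libraries (8.02%) and 12 lower (0.33%), with 10.2% higher and 0.907% lower in WT and 10.2% and 3.21% in PIGinH11. Compared with ductal-only nuclei, 272 were higher (7.47%) and 10 lower (0.275%), with 10.7% and 1.62% in WT and 9.37% and 1.73% in PIGinH11. Since the rule selected for both programmes, these counts describe the selection. On a linear scale, a level midway between both classes is 2-fold below the upper one at most, so few genes could pass as lower.

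Ductal markers outside the rule were present in double-marked nuclei at roughly the middle of the duct level. All 5 (PPP2R2B, EFHC2, SPON1, CACHD1 and ERBB4) were 2-fold higher than in acinar-only nuclei in both libraries, against 8.02% of all genes. SPON1, an extracellular matrix protein, had 30.8 CPM in acinar-only, 961 in double-marked and 1785 in ductal-only nuclei in WT, and 75.9, 1429 and 2500 CPM in PIGinH11. The receptor tyrosine kinase gene ERBB4 had 151, 907 and 1663 CPM in WT and 175, 881 and 1614 CPM in PIGinH11. Each double-marked level lay between the single-marked levels of its library.

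Regulators of duct identity followed the same order. Of 12 genes, 6 had enough UMIs (ONECUT1, GLIS3, PROX1, PBX3, MEIS2 and EHF), and all 6 were 2-fold higher than in acinar-only nuclei in both libraries, against 8.02% of all genes. GLIS3, a zinc finger factor needed for normal ducts and islets, had 282 CPM in acinar-only, 1857 in double-marked and 3472 in ductal-only nuclei in WT, and 171, 1677 and 3214 CPM in PIGinH11. SOX9, the classical ductal and progenitor factor, was found with 14 UMIs in WT and 4 in PIGinH11 double-marked nuclei, too few for a comparison.

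Of the genes of duct secretion, 3 of 13 had enough UMIs, and 2 of them (CFTR and KCNE3) were 2-fold higher than in acinar-only nuclei in both libraries, against 8.02% of all genes. CFTR, the chloride and bicarbonate channel of the apical duct membrane, had 74.4 CPM in acinar-only, 952 in double-marked and 2025 in ductal-only nuclei in WT, and 59.4, 326 and 468 CPM in PIGinH11. CFTR UMIs were found in 162 of 200 WT (81%) and 63 of 203 PIGinH11 (31.0%) double-marked nuclei, and after thinning to 500 UMIs in 35.5% and 12.3%. In acinar-only nuclei the thinned shares were 4.29% and 3.05%. CFTR was thus lower in PIGinH11 than in WT in double-marked and in ductal-only nuclei, at log2 ratios of -1.53 and -2.10. KCNE3, a potassium channel subunit, had 241 CPM in WT and 285 CPM in PIGinH11 double-marked nuclei. KCNN4 and AQP5 had no UMI in double-marked nuclei of either library.

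Genes of the primary cilium gave a mixed picture. Of 10 genes, 7 had enough UMIs, and 3 of them (BICC1, DCDC2 and BBS9) were 2-fold higher than in acinar-only nuclei in both libraries, against 8.02% of all genes. BICC1, an RNA-binding protein whose loss gives cystic ducts, had 35.7 CPM in acinar-only, 820 in double-marked and 1745 in ductal-only nuclei in WT, and 88.8, 1335 and 2460 CPM in PIGinH11. IFT88, a component of intraflagellar transport, was at a similar level in all classes, with 161, 168 and 167 CPM in WT and 253, 251 and 216 CPM in PIGinH11.

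Acinar markers outside the rule mirrored the ductal ones. RBMS2, GRB10 and KCNMA1 were all 2-fold higher than in ductal-only nuclei in both libraries, against 7.47% of all genes. KCNMA1, a calcium-activated potassium channel, had 4597 CPM in acinar-only, 2546 in double-marked and 208 in ductal-only nuclei in WT, and 3742, 1881 and 358 CPM in PIGinH11. GRB10, an adaptor of insulin receptor signalling, had 2104, 1197 and 115 CPM in WT and 2068, 1113 and 205 CPM in PIGinH11.

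Of 9 acinar regulators, 7 had enough UMIs, and 4 of them (GATA4, MECOM, FOXP2 and CAMK1D) were 2-fold higher than in ductal-only nuclei in both libraries, against 7.47% of all genes. MECOM, a zinc finger factor, had 2583 CPM in acinar-only, 1461 in double-marked and 141 in ductal-only nuclei in WT, and 2306, 1163 and 277 CPM in PIGinH11. GATA4 had 351, 212 and 43.7 CPM in WT and 365, 251 and 48.8 CPM in PIGinH11. NR5A2, a nuclear receptor that works with the RBPJL complex on enzyme genes, did not separate the classes, with 832, 926 and 861 CPM in WT and 927, 937 and 995 CPM in PIGinH11. PTF1A, the partner of RBPJL, was found with 11 UMIs in WT and 6 in PIGinH11, and BHLHA15, a factor of secretory maturation, with 33 and 9.

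**Figure D5:**
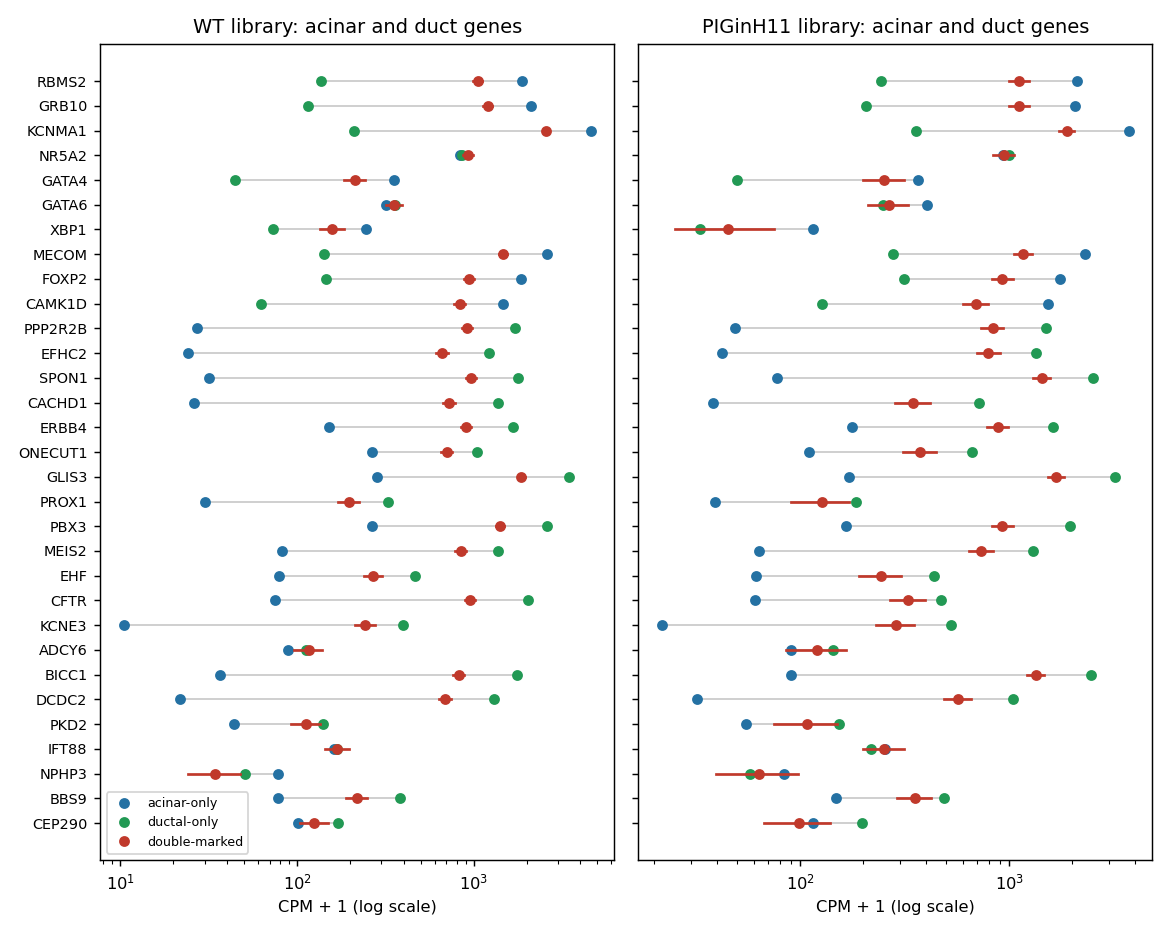
Level of 31 genes (CPM plus 1, log scale) in acinar-only (blue), ductal-only (green) and double-marked (red, with Poisson interval) nuclei, from top to bottom for acinar markers and regulators, ductal markers, duct regulators, duct secretion and cilium. The red points lie between blue and green for genes that separate the classes, such as KCNMA1 and SPON1, and the 3 points lie close together for NR5A2 and IFT88.

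No digestive enzyme was 2-fold lower than the mixed profile in both libraries. Of 16 enzyme genes, 13 were found and 11 had enough UMIs, and 4 (CPB1, PNLIPRP1, PNLIPRP2 and CEL) were 2-fold higher than in ductal-only nuclei in both libraries, against 7.47% of all genes. Their median log2 difference from the mixed profile was -0.33 in WT and -0.18 in PIGinH11, while that of all genes was 0.04 and 0.01. PRSS2, a trypsinogen, had 33634 CPM in acinar-only, 16158 in double-marked and 18921 in ductal-only nuclei in WT, and the mixed profile predicted 26190 CPM. In PIGinH11 it had 6210, 3485 and 1850 CPM. WT double-marked nuclei thus had less PRSS2 RNA per UMI than either single-marked class when all depths were summed. Within bins of depth it was below both in 3 of 5 bins, for example at 12418 CPM from 8000 to 13000 UMIs against 43495 and 15616, and between them in the others, for example at 14568 CPM from 4000 to 8000 UMIs against 27600 and 13827. The enzyme PNLIPRP1, a lipase-related protein, had 6870, 3556 and 929 CPM in WT and 18596, 8544 and 2387 CPM in PIGinH11, between both classes in each.

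The enzyme share differed with depth, and the part of depth in this result was not tested. Enzymes were 4.14% of UMIs in WT double-marked, 8.11% in acinar-only and 3.50% in ductal-only nuclei. In WT double-marked nuclei the enzyme share was 10.8% below 1000 UMIs and 3.85% from 4000 to 8000, and in ductal-only nuclei 10.8% and 2.59%. In acinar-only nuclei it went from 13.5% below 1000 UMIs to 7.08% from 4000 to 8000 and 9.88% above that in WT, while in PIGinH11 it was higher in each deeper bin, from 5.02% to 7.41%. The added pairs in WT had 5.89%. In PIGinH11 the share was 2.92% in double-marked nuclei, 3.30% in added pairs, 5.77% in acinar-only and 1.04% in ductal-only nuclei. Ribosomal protein genes, of which 57 were found, made up 0.377% of UMIs in WT double-marked nuclei, below acinar-only (0.590%) and ductal-only nuclei (0.415%) and added pairs (0.529%). In PIGinH11 they made up 0.259%, between acinar-only (0.359%) and ductal-only nuclei (0.226%), and within WT bins of depth they were below both classes in 3 of 5 bins and between them in the others. Mitochondrial transcripts were 0.0872% of UMIs in WT and 0.0354% in PIGinH11 double-marked nuclei, between the single-marked classes of each library, and no nucleus reached the 10% limit.

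Genes tied to metaplasia and progenitor states were examined because acinar-to-ductal metaplasia is the state in which acinar cells are known to express duct genes. Of 26 genes, 25 were found and 8 had enough UMIs. Of these 8, 5 (KRT7, CD44, CLU, YAP1 and NOTCH2) were 2-fold higher than in acinar-only nuclei in both libraries (8.02% of all genes were), none was 2-fold higher than in ductal-only nuclei, and none differed 2-fold from the mixed profile. CD44, an adhesion receptor raised in metaplastic acinar cells, had 30.6 CPM in acinar-only, 176 in double-marked and 394 in ductal-only nuclei in WT, and 49.5, 182 and 315 CPM in PIGinH11. CLU, which encodes clusterin, a secreted chaperone of injured epithelium, had 7.45, 46.3 and 60.3 CPM in WT and 12.6, 75.2 and 97.4 CPM in PIGinH11, at 0.39 and 0.33 above the mixed profile on the log2 scale. NOTCH2 had 41.4, 526 and 919 CPM in WT and 43.9, 448 and 806 CPM in PIGinH11. KLF4, MUC6 and TFF3 had no UMI in double-marked nuclei of either library, SPP1 had 18 and 1, and MMP7 20 and 3, and KRT19 was not analysed here. For KLF4, MUC6, TFF3, SPP1 and MMP7 a level specific to the double-marked nuclei was not detectable at these counts.

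The genes of cell division had 70 UMIs in WT and 42 in PIGinH11 double-marked nuclei over 17 genes, or 69.0 and 132 CPM, against 89.8 and 152 CPM in acinar-only and 88.1 and 126 CPM in ductal-only nuclei. Of the 18 stress and immediate-early genes, 5 had enough UMIs, 1 (TXNIP, an inhibitor of thioredoxin) was 2-fold higher than in ductal-only nuclei in both libraries (7.47% of all genes were), and none differed 2-fold from the mixed profile. JUN had 253 CPM in acinar-only, 163 in double-marked and 24.3 in ductal-only nuclei in WT, and 96.2, 87.8 and 54.4 CPM in PIGinH11.

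The genes furthest above and below the mixed profile are given as a description, since the UMI minimum could be met by found or by predicted UMIs. In PIGinH11, 8 of the 10 genes furthest above met it through found UMIs alone, and 5 of the 10 furthest below through predicted UMIs alone, so the filter itself favoured a difference. ANKRD40 was furthest above and passed 1.5-fold in both libraries. It had 66.0 CPM in WT double-marked nuclei against 41.9 predicted, and 78.4 against 33.3 in PIGinH11, on 67 and 25 UMIs. The WT log2 difference of 0.60 fell to 0.40 without upper limits and 0.38 as a mean over nuclei, which ends the 1.5-fold call, and was -0.83 in the 15 nuclei without a high doublet score. RBFOX1, a splicing regulator, had 58.1 CPM against 37.2 in WT and 141 against 94.8 in PIGinH11. Its WT log2 difference turned from 0.58 to -0.29 without upper limits. IGSF3, a membrane protein of the immunoglobulin family, had 82.8 CPM against 55.9 in WT and 87.8 against 56.9 in PIGinH11. CNTN5, FAM117A, PHF21B, PCDHAC2 and the unnamed ENSSSCG00000033806 and ENSSSCG00000046785 were also among the 10, at log2 differences of 0.44 to 0.57 in WT. All 10 had between 20 and 100 UMIs in each library.

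The 10 genes furthest below the mixed profile included RPS15, a ribosomal protein, with 139 CPM against 201 predicted in WT and 65.8 against 111 in PIGinH11. TFF2, a trefoil peptide of mucosal protection, had 314 CPM against 465 in WT and 103 against 147 in PIGinH11, and SELENOP, a selenium carrier protein, 141 against 193 and 135 against 184. By level, TFF2 was below both single-marked classes in WT, and FGF14 and FILIP1L were below both in PIGinH11. RPS15, EFL1, LRRCC1 and EIF4H were below both in each library. In PIGinH11 these genes, TFF2 apart, rested on 12 to 21 UMIs, and each Poisson interval included the lower single-marked level. The WT interval also included it for RPS15, EFL1 and LRRCC1, for example 28.99 to 54.8 CPM against 42.6 for LRRCC1. In WT the intervals of TFF2 (up to 350.7 CPM) and EIF4H (up to 74.98) ended below the lower levels of 352.1 and 78.1. The others were FGF14, EFL1, LRRCC1, EIF4H, FILIP1L, RAB17 and ENSSSCG00000047869. The last was 2-fold lower in WT, at 20.7 CPM against 55.2, but not in PIGinH11, at 62.7 against 85.7. Its WT log2 difference of -1.23 went to -0.35 without upper limits, which ends the 2-fold call, and was -0.63 against the added pairs. The direction of FILIP1L also turned. It went from -0.42 to 0.05 in WT without upper limits, and from -0.60 to 0.17 in PIGinH11 as a mean over nuclei.

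Between the libraries, 3413 genes had at least 20 UMIs in double-marked nuclei of each, and 153 were 2-fold higher (4.48%) and 61 were 2-fold lower (1.79%) in PIGinH11. Over the same genes, 2.96% were higher and 1.23% lower in acinar-only nuclei, 3.14% and 1.08% in ductal-only nuclei, and 2.02% and 1.17% in added pairs, all of which held more UMIs. The double-marked nuclei held 1015064 UMIs in WT and 319052 in PIGinH11, so the same minimum asked for a higher level in PIGinH11 and removed more of the genes that were low there, and the balance of 153 to 61 is not a measure of direction. With 1 pig per group, a difference between genotypes and a difference between 2 animals or libraries cannot be told apart. The proportion fitted to the summed UMIs was 0.506 ductal in WT and 0.542 in PIGinH11.

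The genes with the highest ratio were NELL1, AUTS2, ESR2, PLCL1 and CYP2C42. AUTS2, a regulator of transcription known from neurons, had 304 CPM in WT and 2166 in PIGinH11 double-marked nuclei, a log2 ratio of 2.81, compared with 2.98 in ductal-only and 0.96 in acinar-only nuclei. NELL1, a secreted glycoprotein, had 23.6 and 266 CPM, a log2 ratio of 3.24, compared with 3.95 in acinar-only and 1.54 in ductal-only nuclei. ESR2, an estrogen receptor, had 52.2 and 248 CPM, and PLCL1 45.3 and 194 CPM. AUTS2 in double-marked nuclei thus followed the ductal-only ratio and NELL1 lay between both. CYP2C42, a cytochrome P450 gene, had 51.2 and 176 CPM, a log2 ratio of 1.68, compared with 0.71 in acinar-only nuclei, 0.87 in ductal-only nuclei and 0.45 in added pairs. Its ratio was 1.04 as a mean over nuclei and 0.88 without high doublet scores.

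The genes with the lowest ratio were MT1X, PTGER3, AQP9, PRSS2 and FAM155A. MT1X, a metallothionein that binds zinc and copper, had 876 CPM in WT and 150 in PIGinH11, a log2 ratio of -2.50, compared with -2.28 in acinar-only and -2.47 in ductal-only nuclei. PTGER3, a prostaglandin E receptor, had 512 and 90.9 CPM, a ratio of -2.43, compared with -1.94 in acinar-only and -0.54 in ductal-only nuclei. AQP9, a water and glycerol channel, had 236 and 43.9 CPM, a ratio of -2.30, compared with -2.13 in ductal-only nuclei. The acinar-enriched PTGER3 and the duct-enriched AQP9 were thus both lower in PIGinH11 double-marked nuclei, in the direction of the class that carries each gene. PRSS2 had a ratio of -2.21, compared with -2.44 in acinar-only and -3.35 in ductal-only nuclei, and FAM155A -2.05, compared with -2.34 and -0.27. AQP9 and FAM155A had fewer than 20 UMIs in PIGinH11 and so stand outside the 3413 genes counted. As a mean over nuclei the ratios of ESR2, AQP9 and FAM155A were 1.56, -1.69 and -1.39, and those of the other genes named here, CYP2C42 apart, moved by less than 0.5 on the log2 scale.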

How the data were processed

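Raw UMI counts per gene and barcode, made by the authors with Cell Ranger against Sscrofa11.1, were the deposited values. The methods give v3.1.0 and the file headers v5.0.0. The matrices list 31908 genes, 15410 without a symbol, of which 841 were named from the reference table, and precede doublet removal. The UMI limit is 13000; 1300, as the methods print, was an alternative. The 2 libraries share 60 barcode sequences. Members and gene lists were chosen with earlier results of these data known.

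UMIs were summed per class and library (CPM), with folds over CPM plus 5 and at least 20 UMIs. The ductal part was fitted by 60 rounds of expectation-maximization. Intervals are Clopper–Pearson (shares), Poisson (counts) and order statistics (medians). Other cell types were marked at 3 UMIs and 0.6% of their marker list. Doublets were kept and scored with Scrublet (scanpy v1.11.5), with the highest 0.8% for each 1000 barcodes called high. Thinning used 500 UMIs, and for the share of double-marked barcodes also 1000. Steps were tested on simulated data. Named genes are the rule genes, list genes, the 10 furthest above and below the mixed profile by the smaller ratio of both libraries, and the 5 highest and 5 lowest library ratios among genes with a symbol, 100 UMIs in all and 10 in each library. Alternatives changed the rule, the limits, the depth, the reference nuclei, the offset, the scaling and the doublet handling. Genes withheld from this text, including 1 duct regulator left out of its list, are not reported here.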

Additional observations from a re-analysis of the deposited data

Results flagged for a closer look

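The depth of double-marked nuclei relative to acinar-only nuclei was 1.59 in WT and 0.788 in PIGinH11, which are on opposite sides of 1. The difference between the libraries was not tested. Each direction turned in subsets of few nuclei, with wide intervals. The WT ratio was 0.610 (0.234 to 2.50) in the 15 nuclei without high doublet scores. At doubled marker shares it was 0.690 (0.199 to 2.02) in 5 nuclei. The PIGinH11 ratio was 0.547 (0.511 to 0.630) in the 40 nuclei without high scores, so its direction held there. In the 2 PIGinH11 nuclei at doubled shares it was 2.92 (0.602 to 5.25). Among barcodes of at least 1000 UMIs the ratio was above 1 in both, at 1.68 in WT and 1.08 in PIGinH11.

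Above the limits on genes or UMIs, in barcodes used only by the alternative without upper limits, 65 of 429 WT barcodes (15.2%) met both criteria, compared with 1.52% within the limits.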

How the results depend on the processing

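The share of double-marked barcodes moved with most settings. Without high doublet scores it was 0.127% in WT (15 nuclei) and 0.305% in PIGinH11 (40). At doubled marker shares it was 0.0379% (5) and 0.0134% (2), at halved shares 3.43% and 5.04%, after thinning to 500 UMIs 1.96% and 2.58%, without SLC4A4 0.00758% (1) and 0.0268% (4), when 769 and 375 barcodes still met the ductal criterion, and without EFEMP1 0.880% and 0.523%. In WT it was 1.95% without upper limits and 1.10% at a limit of 1300 UMIs, and in PIGinH11 1.10% among barcodes of at least 1000 UMIs, a setting chosen after seeing the data. The order of the libraries turned: the intervals were apart with PIGinH11 higher without high scores, at halved shares and after thinning to 500 UMIs, and with WT higher without EFEMP1 and without upper limits. After thinning to 1000 UMIs the shares were 1.604% in WT and 1.373% in PIGinH11, with overlapping intervals. The depth ratio to acinar-only nuclei fell to 0.610 in WT and 0.547 in PIGinH11 without high doublet scores, was 0.690 and 2.92 at doubled marker shares, 2.22 in WT without upper limits, and 1.08 in PIGinH11 from 1000 UMIs. The median ductal part was 0.641 and 0.728 without high scores, with the acinar-only and ductal-only profiles also refitted without them (0.652 and 0.747 against the full profiles), and 0.579 and 0.400 at doubled shares. The number of genes 2-fold outside the mixed profile in both libraries was 0 in each of 9 alternatives, also without high scores, where fewer genes had enough UMIs. Genes higher and lower in PIGinH11 were 46 and 20 of 1393 at 50 UMIs, 3 and 9 of 155 without high scores, and 6 and 1 of 14 at doubled shares. Fewer genes were counted in these, and the cause of the turned balance without high scores was not tested. At doubled shares ENSSSCG00000033806 was at -2.88 from the mixed profile in PIGinH11, and the library ratios of ESR2, PLCL1 and CYP2C42 were -3.71, -4.66 and -5.63; that of PLCL1 was -0.76 without high scores, and ANKRD40 was at -0.83 from the mixed profile in WT. These rest on 2 to 15 nuclei in a library. On the 265 WT nuclei without upper limits, RBFOX1 was at -0.29 and FILIP1L at 0.05 from the mixed profile. Apart from the lower UMIs and nuclei named, the cause of each move was not tested. No paired analysis was possible because each group is 1 library, so no replicate could be left out either.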
